A study of Rattus norvegicus with 6 samples.

Results

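Ultraconserved elements are stretches of the genome that are identical between human, rat and mouse. The members described here are the array probes named for the minus strand of such an element, 481 probes among 38321 non-control probes, each printed as 3 spots. They were found by their probe names alone, which end in a minus sign (uc.84- is the minus-strand probe of element uc.84), and 481 further probes with a plus sign cover the other strand of the same elements. The arrays measured total RNA of the common carotid artery of Sprague-Dawley rats, all adult males weighing 250 to 300.0 g, with 3 sham arteries and 3 arteries taken 14 days after balloon injury, 1 array per artery. For the injured group an inflated catheter was used, under phenobarbital anaesthesia, to strip the inner lining of the common carotid artery on the right side. Some labels name the controls sham and others uninjured or normal, and the labels do not say whether they were operated on. Nothing in the labels ties each artery to an animal of its own. The p-values then measure only the spread between these samples, which may be technical.

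Many ultraconserved elements are transcribed, often into non-coding RNA, and some lie within genes for splicing factors and other RNA-binding proteins, where they form exons whose inclusion leads to decay of the transcript. Others lie far from coding sequence and act as enhancers of developmental genes. A minus-strand probe and a plus-strand probe of one element report RNA copied in opposite directions, so their signals can differ. Element names are those of the array. Their positions, host genes and probe sequences are not used here, so no member is assigned to a gene, exon or intron. Of 26 marker genes of arterial wall cells, blood cells and neighbouring tissue, 0 could be found by name among the probes, so the tissue label could not be set against its markers.

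Values are log2 of the spot signal relative to each array's own 75th percentile over non-control probes, so 0 is that percentile and each unit is a doubling. Signals of different probes are not compared as amounts of RNA, since probes differ in how strongly they bind. The arrays did not follow their group labels over these members. Across the 155 tested members with a value on each array, injured 1 correlated with sham 1 at r = 0.980, while its correlation was 0.577 with injured 2 and 0.573 with injured 3. For sham 3 the correlation was 0.911 with injured 2, 0.919 with injured 3, 0.859 with sham 2 and 0.639 with sham 1. Sham 2 correlated at 0.90 with both sham 1 and injured 1. These correlations describe the arrays, because members share each array's labelling and scan. Of the variance over all tested probes, 84.7% lay on the first principal component, with sham 1, sham 2 and injured 1 at its positive end and sham 3, injured 2 and injured 3 at its negative end. Sham 3 was also the dimmest array, where the 75th percentile was 89.5 intensity units, while the other 5 arrays had 214 to 284. Whether these arrays carry the right labels was not tested and is not settled by the files, so each value of injured minus sham below holds for the arrays as labelled. Per the file headers, sham 1 and all injured arrays share 1 scan time, while sham 2 and sham 3 each have a scan time of their own.

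Detection was first compared between arrays. A member was taken as detected on an array when at least 50% of its spots were called well above background by the scanner software. Sham 1 detected 118 of the 481 members (24.5%), sham 2 detected 148 (30.8%) and sham 3 detected 131 (27.2%). Injured 1 detected 110 (22.9%), injured 2 detected 227 (47.2%) and injured 3 detected 215 (44.7%). Injured 1 thus had the lowest count of all arrays, while injured 2 and injured 3 had the highest. The groups overlapped. Over all non-control probes the share detected ran from 51.5% (sham 3) to 70.1% (injured 2), above the share of the members on each array. The plus-strand probes were detected in 20.6% (injured 1) to 44.3% (injured 2), in the same order of arrays.

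**Figure D1:**
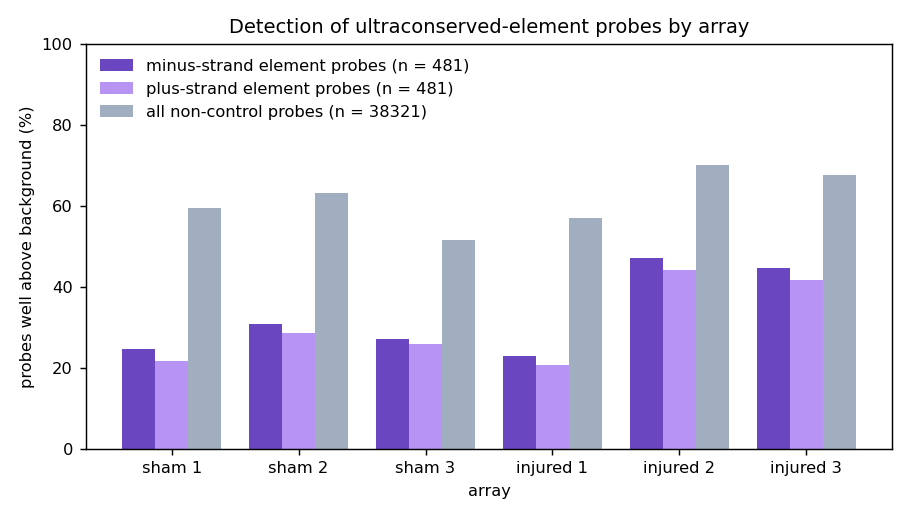
Share of probes well above background (percent, vertical axis) on each of the 6 arrays, for minus-strand element probes, plus-strand element probes and all non-control probes. Minus-strand probes reach 47.2% and 44.7% on injured 2 and injured 3 and lie between 22.9% and 30.8% on the other 4 arrays.

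Of the 481 members, 238 (49.5%) were detected on no array and 82 (17.0%) on all 6. Over all probes 21.0% were detected on none and 43.1% on all 6. The commonest mixed pattern was detection on injured 2 and injured 3 and nowhere else, seen for 55 members. Another 26 members were detected on these arrays and on sham 2 and sham 3, but on neither sham 1 nor injured 1. A further 15 were detected on each array except sham 3, and 11 on sham 3, injured 2 and injured 3 only. No member was detected on all injured arrays and no sham array, and none on all sham arrays and no injured array. Detection on any injured array with none in sham held for 77 members, and the reverse for 5. That count was not made over all probes, so it is not read as a trait of the members. By a narrower count, the array as a whole leaned the same way. Of all 38321 probes, 2960 were detected on exactly 2 injured arrays and no sham array, and 422 on exactly 2 sham arrays and no injured array. Among the members these counts were 55 and 2. Detection on exactly 2 arrays, of whichever group, held for 12.3% of members and 9.49% of all probes.

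Detection was also set side by side for the strands of an element. Over all 481 elements the plus strand was detected on all 6 arrays for 72 (15.0%) and on none for 248 (51.6%). Among the 82 elements whose minus strand was detected on all 6 arrays, 17 also had the plus strand detected on all 6, and 37 had the plus strand detected on none. Conversely, 33 elements had the plus strand on all 6 arrays and the minus strand on none. Neither strand was detected on any array for 129 elements. The minus-only set included uc.84-, uc.465-, uc.448-, uc.308-, uc.144-, uc.162-, uc.45-, uc.459- and uc.275-, whose values follow. Both strands were detected on all arrays for uc.75, uc.141, uc.188, uc.46, uc.238 and uc.258.

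Members with the highest signals among the 82 serve as examples of clear measurement. The brightest, uc.84-, measured 7.19, 6.37 and 6.58 in the sham group and 7.57, 7.81 and 8.27 in the injured group, here and below in the order of arrays 1, 2 and 3. All 3 injured values lay above the sham values. The probe uc.465- measured 6.73, 6.70 and 7.68 in the sham group and 6.34, 7.74 and 7.77 in the injured group. Here injured 1 was the lowest array and sham 3 lay with injured 2 and injured 3, so the groups overlapped. The probe uc.310- measured 2.67, 5.60 and 7.84 in the sham group and 2.45, 8.68 and 8.68 in the injured group. Its values spanned 6.23 log2 units, with sham 1 and injured 1 at the bottom and injured 2 and injured 3 at the top. The probes uc.360-, uc.448- and uc.115- had the same low arrays and the same high arrays, with ranges of 4.07, 5.19 and 6.19 log2 units. For uc.308- the range was 3.98, with sham 1 lowest and injured 2 highest. A different order held for uc.141-, at 5.10, 4.92 and 4.86 in the sham group and 5.08, 3.01 and 3.26 in the injured group, where injured 2 and injured 3 stood below the other 4. For uc.46- the values were 4.22, 4.42 and 3.96 in the sham group and 4.60, 1.97 and 1.67 in the injured group, again with injured 2 and injured 3 low. The remaining example, uc.188-, varied less, between 3.15 (injured 1) and 4.49 (sham 3).

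The spread within and between arrays was then described. Over the 82 members the median SD of the spots of a probe on one array was 0.10 log2 units, a technical error alone. The median SD over the arrays of a group was 0.85 in the sham group and 1.15 in the injured group, and the median range over the 6 arrays was 2.45. Injured 2 and injured 3 differed by a median of 0.16 log2 units, and 4 of 82 members differed by over 2-fold between them. Sham 1 and injured 1 differed by a median of 0.31, with 7 members over 2-fold. Injured 1 and injured 2, which carry the same label, differed by a median of 2.04, with 62 members over 2-fold. Among all probes detected on 6 arrays, 70.5% differed over 2-fold between injured 1 and injured 2 and 5.89% between injured 2 and injured 3.

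**Figure D2:**
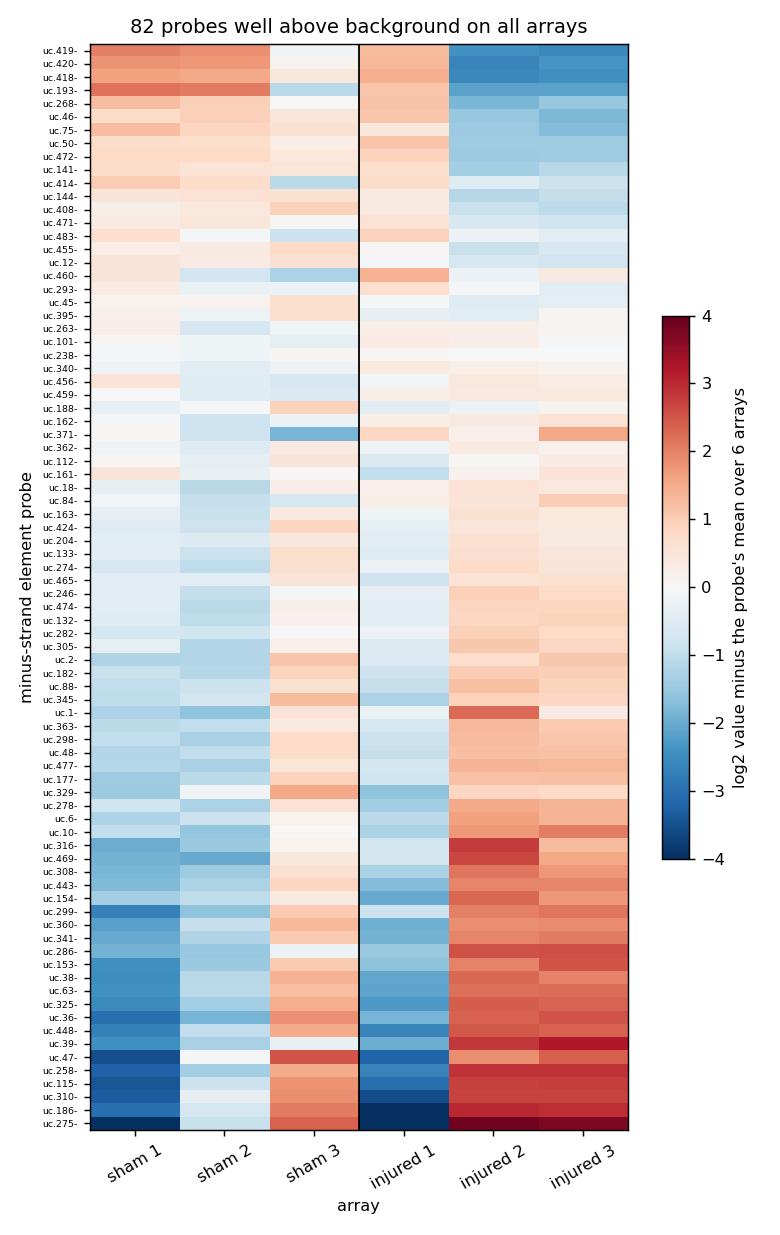
Log2 values of the 82 minus-strand probes detected on all arrays, each minus its own mean over 6 arrays (colour, drawn from -4 to 4, with values outside shown at the end colours), by array (columns) and probe (rows, sorted by injured 2 and 3 against sham 1 and injured 1). Injured 1 has the colours of sham 1, and sham 3 leans toward injured 2 and injured 3 in most rows at the bottom.

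The widest range among the 82 belonged to uc.275-, at -1.94, 1.98 and 5.25 in the sham group and -1.40, 6.72 and 6.62 in the injured group. The probe uc.186- measured -2.26, 0.07 and 2.82 in the sham group and -3.63, 3.76 and 3.70 in the injured group. The probe uc.258- measured -4.04, -2.17 and 0.67 in the sham group and -3.48, 2.07 and 2.07 in the injured group. In all 3 of these probes the sham arrays alone spread over more than 4 log2 units, sham 1 and injured 1 were the lowest arrays, and the groups overlapped. Their log2 fold changes of 2.22 ± 2.76, 1.07 ± 2.33 and 2.07 ± 1.89 (SE) were close to or below their own errors. At the other end, uc.238- was the most even member, at -2.95, -3.07 and -2.80 in the sham group and -2.87, -2.91 and -2.89 in the injured group. Its log2 fold change was 0.05 ± 0.41 (SE) with a 95% interval of -0.95 to 1.06. The next most even, uc.101-, uc.340-, uc.362- and uc.263-, had ranges of 0.72, 0.83, 0.87 and 0.96 log2 units.

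The order of the arrays recurred across members. Of 155 tested members with a value on each array, 99 (63.9%) had sham 3, injured 2 and injured 3 all above sham 1 and injured 1, against 34.7% of all tested probes. The reverse order held for 25 members (16.1%), against 39.5% of all tested probes. Testing required detection on 3 or more arrays of either group. Members that passed only through their high arrays had to differ between arrays, so these shares describe the tested members and support nothing further. Among the 82 members detected on all arrays the counts were 51 and 15. The same counts were not made over all probes detected on all arrays, so no excess is read from them. Consecutively numbered elements were among those of the reverse order. They were picked after their values were seen and outside the rules for named members, and whether they lie together was not examined. The probe uc.418- measured 1.31, 1.23 and 0.16 in the sham group and 1.15, -2.87 and -2.75 in the injured group. The probe uc.419- measured 1.02, 0.87 and -1.12 in the sham group and 0.26, -3.43 and -3.58 in the injured group. The probe uc.420- measured 4.58, 4.52 and 2.93 in the sham group and 4.14, 0.17 and 0.43 in the injured group. In all 3 the injured 2 and injured 3 values were the lowest, and injured 1 lay within or next to the sham values. Their log2 fold changes were -2.39 ± 1.17, -2.50 ± 1.22 and -2.43 ± 1.19 (SE), and none passed the test.

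The comparison of injured with sham arteries asked which element transcripts differ 14 days after injury. Limma called 0 of the 159 tested members at an adjusted p under 0.05, the lowest being 0.599, and called 0% of all 24718 tested probes. At an unadjusted p under 0.05 there were 3 members, 1.89% of those tested, against 4.43% of all tested probes. Of these, 2 were higher in the injured group (1.26%, against 2.39% of all tested probes) and 1 was lower (0.629%, against 2.04%). Each share was below that of all probes. The remaining 322 members were not tested. The median SE of a member's log2 fold change was 0.89, and for 0 of 159 did the 95% interval lie wholly within 2-fold of no change, so the absence of calls does not show equal levels. Leaving out 1 array gave 0 called members each time. Without injured 1, however, the lowest limma adjusted p among members was 0.052. At an unadjusted p under 0.05 there were then 57 of 158 members (36.1%, against 44.5% of all tested probes). With sham 3 and injured 1 both set aside, limma called 121 of 158 members, 96 of them higher in the injured group, and 73.6% of all tested probes. These arrays were chosen because of their values, so that count describes 2 pairs of arrays and is no test of injury.

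By direction, 125 of the 159 tested members (78.6%) had a positive log2 fold change and 34 a negative one, against 52.3% positive over all tested probes. The median was 0.81 for the members, 0.75 for the 152 tested plus-strand probes and 0.10 for all tested probes. Among probes detected on all 6 arrays 61 of 82 members were positive, with a median of 0.79, and 48.0% of all probes were, with a median of -0.08. With no filter 346 of 481 members were positive (71.9%, against 56.7% of all probes). These are counts of group means, and the filter, the dim signals and the order of the arrays enter them. Without sham 1 the median over the members was 0.38, and without injured 1 it was 1.33. With normexp background correction, which adds an offset to every signal, it was 0.22 over the members and -0.06 over all tested probes. A fit that took the first principal component as a covariate turned the direction, with 64 of 159 members positive and a median of -0.12. That component was computed from these same values. Most sham arrays lie at its positive end and most injured arrays at its negative end, so the covariate also takes up part of the group difference. Scaling moved the members and all probes together. Under quantile scaling 68.6% of members were positive, against 48.3% of all tested probes. With no scaling it was 81.8%, against 59.0%, and the median over all probes was 0.38. Among the 4 arrays of the shared scan time, which hold a single sham array, 117 of 159 members were positive (73.6%, against 48.7% of all tested probes).

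**Figure D3:**
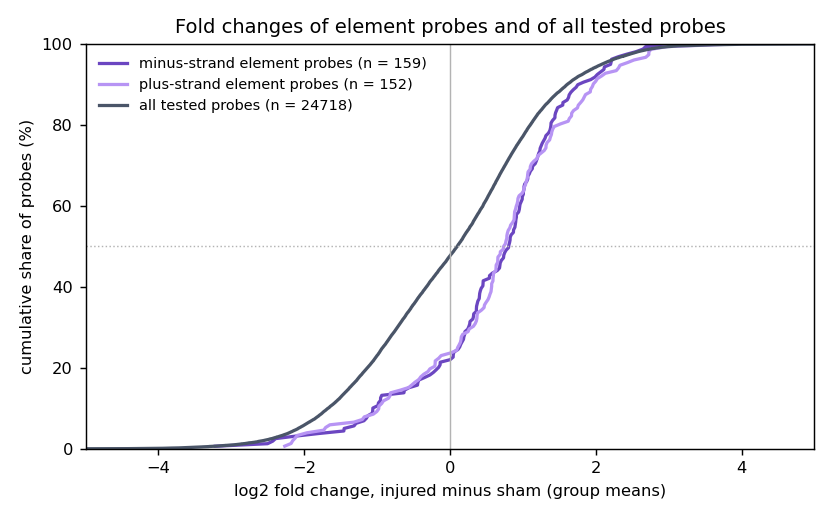
Cumulative share of probes (percent, vertical axis) against the log2 fold change of injured over sham group means (horizontal axis), for 159 minus-strand probes, 152 plus-strand probes and all 24718 tested probes. The curves of both strands lie together, with medians of 0.81 and 0.75, to the right of all probes with a median of 0.10.

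Separation of the groups was then examined. The 3 injured values lay wholly above or wholly below the 3 sham values for 14 of 155 members (9.03%), against 11.8% of all tested probes. Of these, 9 members lay above (5.81%, against 6.44% of all probes) and 5 below (3.23%, against 5.31%). Among members detected on all 6 arrays it was 10 of 82 (12.2%), against 12.5% of all such probes. Each of these shares of members was below that of all probes. Without injured 1 the count was 101 of 155 (65.2%, against 69.3% of all tested probes). Without sham 3 it was 54 (34.8%, against 39.1%) and without sham 1 it was 28 (18.1%, the share of all probes too). An exact permutation test of 3 against 3 arrays cannot give a p below 0.1, so no such test was made for single members.

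Among the separated members that were higher in the injured group, uc.436- had the lowest unadjusted p. It measured -4.98, -3.85 and -3.30 in the sham group and -2.56, -1.65 and -1.56 in the injured group. The gap between the groups was 0.74 log2 units, but the probe was detected on only 1 sham array. The log2 fold change of uc.436- missed the threshold at 2.12 ± 0.62 (SE; limma adjusted p = 0.599). It was 0.58 with normexp background correction, so its size depends on how dim signals are treated. The dim probe uc.377-, also detected on 1 sham array, measured -4.95, -4.20 and -3.28 in the sham group and -3.14, -2.31 and -2.76 in the injured group. For uc.377- the log2 fold change was 1.41 ± 0.60 (SE), and 0.23 with normexp.

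The bright probe uc.84-, given above by array, had means of 6.71 ± 0.43 in the sham and 7.88 ± 0.36 in the injured group (SD, n = 3). The difference between them was 1.17 ± 0.48 log2 units (SE; limma adjusted p = 0.599), or 2.25-fold, with a gap of 0.38 between the groups. It was 1.26 with normexp, 1.1 with the component as a covariate, 0.90 with median scaling and 1.45 with no scaling. Leaving out 1 array gave 0.97 to 1.41, and within the shared scan time it was 0.69 against the single sham array. The plus strand of uc.84 was detected on no array. The probe uc.371- measured 2.20, 1.27 and 0.26 in the sham group and 2.95, 2.32 and 3.65 in the injured group. The change of uc.371- was 1.73 ± 0.68 on the log2 scale (SE; limma adjusted p = 0.599), with sham 3 the lowest array and a gap of 0.12. Within the shared scan time this was 0.78.

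Smaller differences separated uc.162-, uc.459- and uc.340-, all detected on each array. The probe uc.162- measured 2.75, 2.01 and 2.59 in the sham group and 3.05, 3.20 and 3.40 in the injured group. The probe uc.459- measured 0.35, -0.16 and -0.27 in the sham group and 0.59, 0.72 and 0.73 in the injured group. The probe uc.340- measured 3.06, 2.77 and 3.00 in the sham group and 3.60, 3.49 and 3.37 in the injured group. In these 3 members sham 3 lay with the other sham arrays and injured 1 with the other injured arrays. Their log2 fold changes were 0.77 ± 0.45, 0.71 ± 0.44 and 0.54 ± 0.42 (SE; limma adjusted p = 0.599 for each), so each missed the threshold. They stayed positive with the component as a covariate, at 0.69, 0.76 and 0.59.

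Among the members lower in the injured group, uc.75- had the lowest unadjusted p. It measured 3.93, 3.55 and 3.29 in the sham group and 3.15, 1.25 and 0.97 in the injured group. Injured 1 lay only 0.13 log2 units below the lowest sham value, while injured 2 and injured 3 lay far lower. It missed the threshold with a log2 fold change of -1.80 ± 0.70 (SE; limma adjusted p = 0.599), and its value was -1.12 with the component as a covariate. The probe uc.144- was even across sham arteries, at 2.92, 2.98 and 3.00, and measured 2.76, 1.27 and 1.44 in the injured group. The probe uc.455- measured 2.73, 2.80 and 3.26 in the sham group and 2.54, 1.57 and 1.83 in the injured group. In both, injured 1 again lay closest to the sham values. Their log2 fold changes were -1.15 ± 0.56 and -0.95 ± 0.49 (SE).

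The probe uc.12- measured -2.42, -2.60 and -2.32 in the sham group and -2.96, -3.55 and -3.69 in the injured group, a gap of -0.36 log2 units. For uc.12- the log2 fold change was -0.95 ± 0.45 (SE), and -0.40 with normexp. The probe uc.45- measured 3.16, 3.15 and 3.63 in the sham group and 2.95, 2.49 and 2.63 in the injured group. The difference for uc.45- was -0.63 ± 0.44 log2 units (SE; limma adjusted p = 0.599 for both probes). It was -0.60 without both sham 3 and injured 1. None of the 12 separated members named here changed sign under an alternative setting. With arrays left out, weighted or blocked this was fixed in advance, because groups that do not overlap keep their order. For those settings it says nothing about stability.

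**Figure D4:**
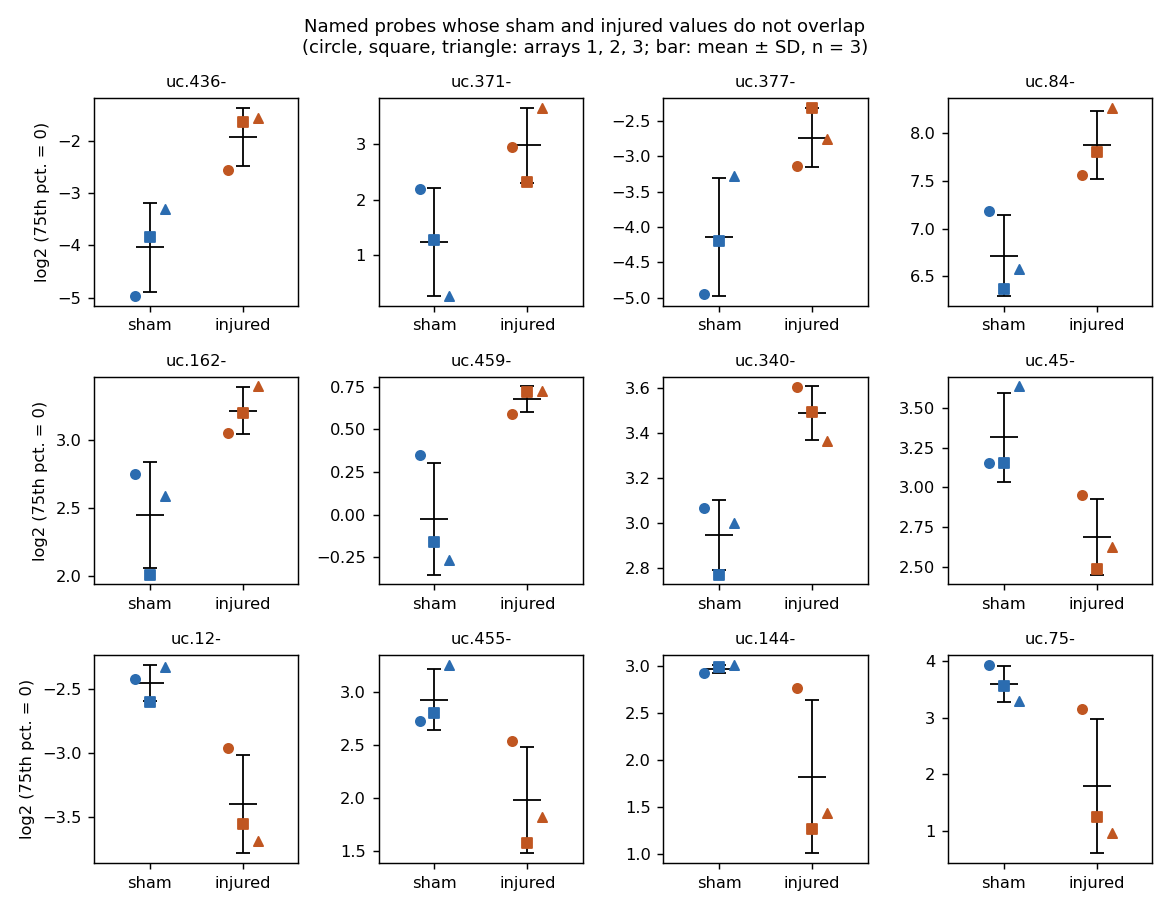
Log2 values relative to each array's 75th percentile (vertical axes, which differ between panels and do not start at 0) for the 12 named probes whose groups do not overlap, with mean ± SD (n = 3) as bars and circles, squares and triangles for arrays 1, 2 and 3. For uc.75-, uc.144- and uc.455- the injured 1 circle lies next to the sham values, and for uc.340-, uc.459- and uc.162- the injured arrays lie together.

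Of the 10 members with the lowest unadjusted p, 3 had groups that overlapped. The probe uc.185- measured 0.79, 0.31 and -1.02 in the sham group and 0.08, -4.84 and -4.82 in the injured group. It was detected on all sham arrays and only on injured 1 among the injured arrays, with a log2 fold change of -3.22 ± 1.44 (SE; limma adjusted p = 0.599). The probe uc.316- measured -3.79, -3.30 and -1.67 in the sham group and -2.56, 0.98 and -0.55 in the injured group. The probe uc.469- measured -4.06, -4.18 and -1.69 in the sham group and -2.91, 0.50 and -0.61 in the injured group. In both, sham 3 lay above injured 1. Their log2 fold changes were 2.21 ± 1.05 and 2.31 ± 1.11 (SE).

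The changes of the strands of one element were compared for the 53 elements with both probes tested. For each array the plus-strand value was subtracted from the minus-strand value, which removes scaling between arrays, and injured and sham arrays were compared on that difference. Limma called 0 of 53 elements (0%), with a lowest adjusted p of 0.722, and 0 had an unadjusted p under 0.05. The median difference of the log2 fold changes was 0.04 with a median SE of 1.18, so differences of several-fold between strands could not be resolved. Both strands had a positive log2 fold change for 32 elements and both a negative one for 6. The minus strand was positive and the plus strand negative for 11, and the reverse held for 4. Without injured 1, 4 elements were called, and leaving out any other single array gave 0. Without both sham 3 and injured 1 the count was 20. Those arrays were set aside because of their values, so the count of 20 is no test of injury.

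The 5 elements with the lowest unadjusted p for a strand difference were uc.306, uc.226, uc.167, uc.427 and uc.324. For uc.226 the minus strand measured -5.76, -3.92 and -0.63 in the sham group and -4.83, 0.03 and -0.02 in the injured group. Its plus strand measured -1.37, -1.38 and -1.41 in the sham group and -3.44, -3.97 and -3.54 in the injured group. The plus strand separated the groups while the minus strand followed the order seen in most members, with sham 1 and injured 1 low. The difference between the changes was 4.10 ± 1.92 (SE; limma adjusted p = 0.722). It was 1.88 ± 0.86 for uc.306 and 2.48 ± 1.16 for uc.167, and -1.52 ± 0.72 for uc.427 and -2.22 ± 1.14 for uc.324 (SE). All 5 minus-strand probes were detected on only 3 or 4 arrays, so part of each difference rests on signals near background.

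**Figure D5:**
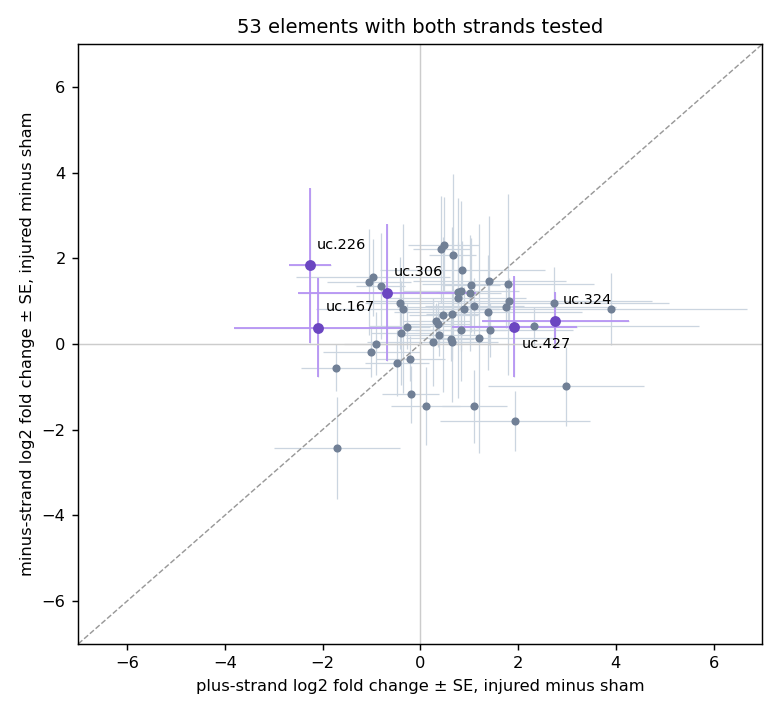
Log2 fold change of the minus-strand probe (vertical axis) against that of the plus-strand probe (horizontal axis), injured minus sham with SE bars, for 53 elements. The dashed line marks equal changes, the 5 elements with the lowest unadjusted p for a strand difference are coloured, and the point furthest above the line is uc.226 with a difference of 4.10.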

How the data were processed

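Spot intensity values came from the scanner files the authors deposited, 1 per array. Per the file headers, Agilent Feature Extraction 11.0.1.1 subtracted background and detrended each array, with no scaling between arrays. A second deposited file holds log2 values normalized by the authors, whose method is not given in the sources used here. Each column correlated best with its own array (r = 0.988 to 0.999), and the table served as an alternative. The files also hold flags of 0 or 1 per spot, per the file headers.

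Outlier spots were left out, log2 signals were averaged over the spots of a probe and the 75th percentile of each array was subtracted. This left 6 members without a value on some array, 4 of them tested, and limma fitted those on the remaining arrays. No spot was saturated. Probes detected on at least 3 arrays (24718 of 38321, 159 members) were tested in limma (version 3.58.1, R version 4.3.3; lmFit, then eBayes), and p-values were Benjamini-Hochberg adjusted over all of them. Arrays with the same scan time in the file headers were taken as 1 block. The number of arrays limits the precision.

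The members and lists were chosen with earlier results of these data known. Named members were the 10 with the lowest p, those detected on every array of one group and on none of the other (0 members), those separating the groups on all 6 arrays, the 10 brightest, the 5 most and 5 least even, and 5 elements by strand difference. Alternatives were other backgrounds, scalings, filters, blocks, weights, a principal component as a covariate, the authors' values and arrays left out, and, added after seeing the data, the median over spots. The test was tried on simulated data with independent noise that was smaller than the median spread within these groups. That trial checks the code and does not show how the test performs on these arrays.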

Additional observations from a re-analysis of the deposited data

Results flagged for a closer look

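Outside the test, which leaves out 322 members, 55 minus-strand probes were well above background on 2 injured arrays and on no sham array. In all 55 the arrays were injured 2 and injured 3. A further 22 untested members were detected on 1 injured array only, 3 on 1 sham array only, and 2 on 2 sham arrays only. Of all 38321 probes, 2960 were detected on no sham array and exactly 2 injured arrays, and 422 on exactly 2 sham arrays and no injured array. Injured 2 and injured 3 also detected the most probes of all arrays, and the part of that in the pattern was not tested. Injured 1 detected 110 members, fewer than any sham array (118, 148 and 131). As labelled, the pattern sets injured 2 and injured 3 apart from injured 1 as well as from the sham arrays. Its cause was not tested.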

How the results depend on the processing

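In limma 135 members (84.9%, against 81.8% of all tested probes) were called with array weights and 121 (76.6%, against 73.6%) with sham 3 and injured 1 both left out, and 0 in every other setting run. The weights were estimated from these same values, and both arrays were left out because of theirs. Neither count is therefore a test of injury. The number of positive members was 64 when the first principal component was a covariate, 346 with no filter and 61 among members detected on all 6 arrays, which changes how many are counted. The covariate turned the median log2 fold change to -0.12. The count of separated members was 139 without both of these arrays (89.7%, against 89.5% of all tested probes), 9 with median scaling (5.81%, against 9.65%) and 14 to 101 with 1 array left out (8.97% to 65.2%, against 12.7% and 69.3%). Called strand differences numbered 8 with array weights, 20 without both arrays and 0 to 4 with 1 array left out. The weighted count and the count without both arrays carry the same limit. The labels do not say whether the replicate numbers pair the arrays. Deviations from the group means correlated at 0.83, -0.57 and 0.82 for numbers 1, 2 and 3. These values cannot settle it, because there are 3 arrays per group and the first principal component holds 84.7% of the variance. With a replicate block 0 members were called, with 25 at an unadjusted p under 0.05 (15.7%, against 19.6% of all tested probes). The scan time block leaves 1 sham array, so its 0 calls say nothing about the groups.

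Of 748 values of the 36 named members under alternatives, 41 turned sign. With that covariate these were uc.465- (-0.34), uc.310- (-1.35), uc.360- (-0.46), uc.448- (-0.68), uc.115- (-0.82), uc.362- (-0.044), uc.306- (-0.75), uc.226- (-0.41), uc.167- (-0.95), uc.427- (-0.96), uc.324- (-0.11), uc.275- (-1.21), uc.186- (-1.86) and uc.258- (-0.29). Normexp gave -0.062 for uc.238-, -0.044 for uc.167- and -0.11 for uc.427-. Median scaling gave -0.028 for uc.465-, -0.22 for uc.238- and -0.069 for uc.362-. Quantile scaling gave -0.27 for uc.238- and -0.27 for uc.427-, and the authors' values gave -0.27 and -0.18. For uc.188- the scan time block gave 0.16, array weights 0.064 and leaving out both arrays 0.15, and the scan time block gave -0.039 for uc.263-. With 1 array left out the ranges were -0.12 to 3.31 for uc.310-, -0.15 to 1.36 for uc.167-, -0.34 to 1.45 for uc.427-, -0.18 to 3.52 for uc.186-, -0.010 to 0.12 for uc.238-, -0.006 to 0.43 for uc.362- and -0.60 to 0.022 for uc.188-. Beyond what the settings themselves change, the cause was not tested. Signals near background limit the dim members.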
